A study of Homo sapiens with 2 samples.

Results

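Protein phosphatase 2A (PP2A) is built from a catalytic subunit, a scaffold subunit and a regulatory B subunit, and 10 genes for these subunits are described here. They were chosen by name: the catalytic subunits PPP2CA and PPP2CB, the scaffolds PPP2R1A and PPP2R1B, the B55 subunits PPP2R2A and PPP2R2D, and the B56 subunits PPP2R5A, PPP2R5C, PPP2R5D and PPP2R5E. All 10 were in the deposited table of 56544 gene names, each on 1 line, and all 10 were among the 14288 genes with a level of at least 1 FPKM in either library. FPKM are fragments scaled to transcript length and to the library, so levels of different genes can be compared.

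PP2A removes phosphate from serine and threonine and accounts for much of this activity in most cells. The scaffold holds the catalytic subunit, and the B subunit bound to it selects the substrates. Striatins, among them STRN3, are a further class of B subunit, which places PP2A in the STRIPAK complex, where it counteracts the kinases of the Hippo pathway. The B55 and B56 subunits are the alternatives to striatins on the same core of scaffold and catalytic subunit.

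RNA was sequenced from HGC-27, an established human cell line of an undifferentiated gastric cancer, 48 h after treatment in culture. One library came from cells that received a control peptide and one from cells that received the peptide named SOS in the sample titles and SHAP in the series title. Both peptides were delivered in PDPA micelles, and both cultures had the same medium. SHAP is known as a STRN3-derived peptide made to block the binding of STRN3 to the PP2A core, so the comparison addresses whether RNA levels of that core and of the competing B subunits differ after treatment. With 1 library per group there is no replicate check and no test, and each difference below describes these libraries only. Every direction rests on the column names, which give 1 FPKM column as control and 1 as SOS. An exchange of those names could not be tested, and in the deposited log2 ratio a positive sign goes with a higher control value. The table gives no counts, so the depth and the counting error behind a value are unknown. In RNA from whole cultures, fewer cells expressing a gene and less RNA per cell cannot be told apart.

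Defining markers of gastric epithelium were at or near 0 in both libraries. All 5 epithelial markers were below 1 FPKM in both libraries, the highest being KRT8 at 0.797 in control and 0.353 in SOS and EPCAM at 0.238 and 0.599, with CDH1 and KRT18 listed at 0 in control. All 7 markers of gastric mucosa were below 1 as well. The mesenchymal filament gene VIM was at 3161 FPKM in control and 3140 in SOS and the matrix gene FN1 at 5.51 and 8.965, whereas the mesenchymal cadherin gene CDH2 was at 0.156 and 0.123. Summed markers of leukocytes were at 0.329 and 0.328 FPKM, and those of endothelium at 0.009 and 0.016.

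Reference promoter sequence is shown for 4 of the subunit genes, the pair that was higher in SOS (PPP2R5A and PPP2R5C) and a pair that was lower in the deposited FPKM and shares a motif (PPP2CA and PPP2R2D). Each is the 250 bases before the outermost RefSeq start in GRCh38.p14, 5′ to 3′ on the strand of the gene. Capitals mark the GC box, which reads GGGCGG, on either strand. They also mark the CCAAT box and the cyclic AMP response element TGACGTCA on either strand.
PPP2R5A, chr1:212285160-212285409, plus strand: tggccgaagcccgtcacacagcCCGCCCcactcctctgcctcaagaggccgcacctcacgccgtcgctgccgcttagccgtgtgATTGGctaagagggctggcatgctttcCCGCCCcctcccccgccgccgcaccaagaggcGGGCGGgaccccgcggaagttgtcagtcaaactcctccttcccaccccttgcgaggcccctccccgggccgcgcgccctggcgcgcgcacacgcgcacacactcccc
PPP2R5C, chr14:101760323-101760572, plus strand: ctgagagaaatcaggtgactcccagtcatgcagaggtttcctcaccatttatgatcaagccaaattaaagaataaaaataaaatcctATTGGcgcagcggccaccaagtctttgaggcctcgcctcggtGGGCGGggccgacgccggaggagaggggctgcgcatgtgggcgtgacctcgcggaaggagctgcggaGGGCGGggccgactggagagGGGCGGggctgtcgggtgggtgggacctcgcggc
PPP2CA, chr5:134226074-134226323, minus strand: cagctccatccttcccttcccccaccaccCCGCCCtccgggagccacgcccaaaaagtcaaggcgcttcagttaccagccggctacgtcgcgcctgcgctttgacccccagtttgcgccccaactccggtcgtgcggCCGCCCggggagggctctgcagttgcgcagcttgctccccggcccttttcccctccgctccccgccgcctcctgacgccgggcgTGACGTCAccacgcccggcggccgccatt
PPP2R2D, chr10:131900758-131901007, plus strand: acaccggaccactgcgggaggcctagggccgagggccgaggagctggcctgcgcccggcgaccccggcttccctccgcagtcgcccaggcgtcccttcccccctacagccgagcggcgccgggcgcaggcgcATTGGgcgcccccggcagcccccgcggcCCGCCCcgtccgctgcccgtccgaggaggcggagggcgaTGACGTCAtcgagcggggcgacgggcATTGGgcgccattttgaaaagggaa

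RefSeq windows were matched for 8 of the subunit genes, with 14 windows in all since some genes have several starts. PPP2CB and PPP2R2A had no entry. A GC box was found in at least 1 window of all 8 matched genes, in 9 of 14 windows, against 42.6% of 35116 windows of the same length. A CCAAT box was found in 9 of 14 windows, against 32.0%. The exact element TGACGTCA was found in 2 of 14 windows, those of PPP2CA and PPP2R2D, against 1.65% of all windows. The windows of PPP2R1A, PPP2R1B, PPP2R5D and PPP2R5E, also lower in the deposited FPKM, lacked it, as did those of PPP2R5A and PPP2R5C. The printed lower pair shares this element and thus does not stand for the lower members. Among the other motifs searched, TATAAA was in 1 member window (10.7% of all windows), the ETS motif CCGGAAG in 1 (8.52%), the hypoxia element core ACGTG in 2 (18.5%), and the E-box CACGTG (6.34%) and the NRF1 motif (1.03%) in 0. The E-box includes the hypoxia core, so those searches overlap, and both strands were searched throughout. The outermost windows of PPP2R5A and PPP2CA had similar GC contents of 72.0% and 71.2%, against a median of 58.0% over all windows. Those of the other matched genes ranged from 56.8% for PPP2R5D to 76.0% for PPP2R2D, with PPP2R5C at 61.6%. Whether GC content goes with direction was not tested. PPP2R5A was higher in SOS, and PPP2CA was lower in the deposited FPKM but not under every scaling. A motif match is a description of sequence and does not show that a factor binds there.

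Levels of the 10 PP2A members differed little between the libraries, and no member differed by 2-fold. PPP2R5B, a B56 gene outside the 10, was 2.60-fold higher in SOS by the deposited FPKM and is described further on. On the scale log2((SOS FPKM + 1)/(control FPKM + 1)), 0 of 10 members had an absolute value of at least 1, against 5.39% of all 14288 genes (3.74% higher and 1.64% lower) and 2.66% of genes of like level. Genes of like level are the 5381 whose mean level lay within the range of the members, 12.3 to 99.0 FPKM. Of the 10, 8 were lower in SOS by the deposited FPKM and also with the median of all genes set to 0, and 5 and 2 under the other rescalings described further on, against 54.1% of all genes and 69.3% of genes of like level in the deposited FPKM. The members' count in the deposited FPKM stood near that of genes of like level. Their median log2 ratio was -0.24, against -0.05 over all genes and -0.19 over genes of like level. By a smaller size, an absolute log2 ratio of at least 0.32, PPP2CB and PPP2R2A were lower in SOS (2 of 10, against 26.7% of all genes and 35.3% at like level). PPP2R5A was higher by that size (1 of 10, against 22.8% and 11.4%). PPP2R5A lay just inside this size, with a log2 ratio of 0.3235 against 0.3219, and PPP2R2D just outside on the lower side with -0.31.

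**Figure D1:**
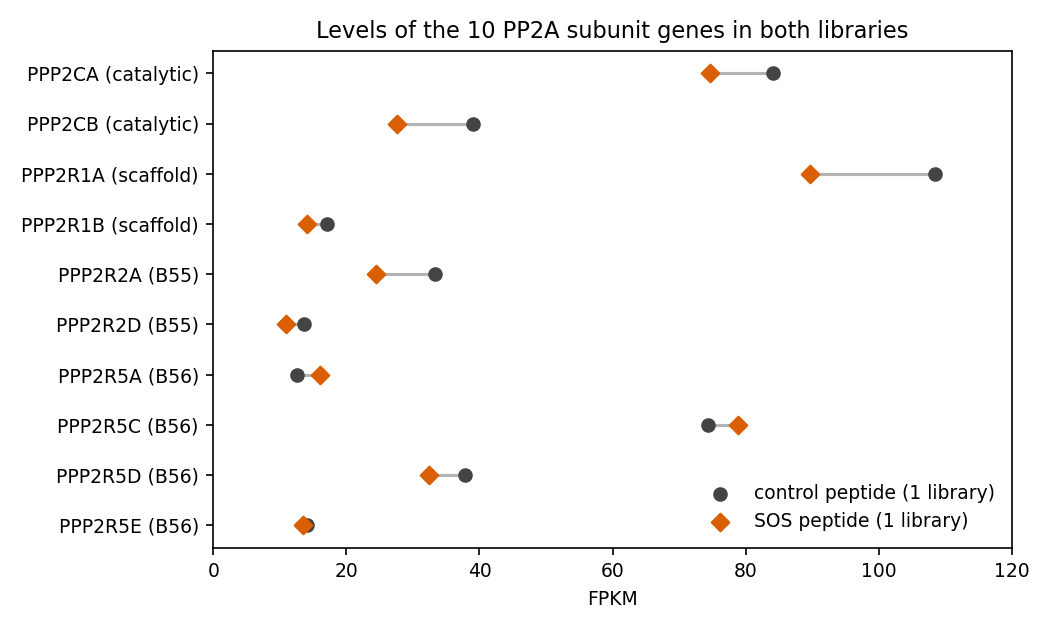
FPKM of the 10 PP2A subunit genes (horizontal axis, linear from 0) in the control library (circles) and the SOS library (diamonds), with 1 library per group and no error bars. PPP2R1A was highest in both libraries, PPP2R5A and PPP2R5C were higher in SOS, and the other 8 genes were lower, of which 3 were above 0 with equal sums and 6 with mitochondrial genes left out of the sums.

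The catalytic subunits differed unequally. PPP2CA (chromosome 5, 134194334 to 134226142, GRCh38), which encodes the more abundant alpha catalytic subunit, was at 84.1 FPKM in control and 74.7 in SOS. PPP2CB (chromosome 8, 30774457 to 30814314), which encodes the closely related beta form, was at 39.1 and 27.7. The SOS level against control was -11.2% for PPP2CA and -29.3% for PPP2CB, with log2 ratios of -0.17 and -0.48, and PPP2CA alone of the pair came above 0 under rescaling. Of 1080 genes within 1.5-fold of the mean level of PPP2CA, 69.6% had a lower ratio, so PPP2CA stood above most genes of its level although it was lower in SOS. For PPP2CB only 21.6% of 2172 such genes had a lower ratio. PPP2CB made up 31.7% of the catalytic FPKM in control and 27.0% in SOS, a share that does not depend on how the libraries are scaled.

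Reads of the catalytic genes could in part belong to overlapping or similar transcripts. PPP2CA and PPP2CB had no stretch of 31 bases in common in the GENCODE release 29 transcripts. Of the 31-base stretches of the longest coding transcript, 12.8% for PPP2CA and 7.39% for PPP2CB also occurred in transcripts of other genes. AC104109.4, a non-coding transcript on the strand of PPP2CA that overlaps 20529 bases of that gene, was at 33.7 FPKM in control and 23.3 in SOS. With it added to PPP2CA, an alternative chosen after the values were seen, the share of PPP2CB was 24.9% and 22.0%.

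Both scaffold genes were lower in SOS by nearly the same proportion in the deposited FPKM and with equal sums, and both were above 0 with mitochondrial genes left out of the sums. PPP2R1A (chromosome 19, 52190039 to 52229533), the alpha scaffold that most PP2A contains, was at 108 FPKM in control and 89.7 in SOS. PPP2R1B (chromosome 11, 111726908 to 111766427), the scarcer beta scaffold, was at 17.1 and 14.0. The log2 ratio was -0.27 for each, and PPP2R1A exceeded PPP2R1B 6.35-fold in control and 6.38-fold in SOS. Against genes of its own level PPP2R1A stood above 59.7% of 858 genes and PPP2R1B above 30.7% of 2946. SIK2, which lies on the opposite strand and overlaps 3946 bases of PPP2R1B, was at 5.13 and 4.61 FPKM, and the sources do not say whether counting used strand.

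The summed scaffold and catalytic levels kept their proportion. The scaffolds summed to 126 FPKM in control and 104 in SOS, and the catalytic subunits to 123 and 102. Their ratio was 1.02 in control and 1.01 in SOS. With AC104109.4 added to PPP2CA the ratio was 0.80 and 0.83.

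The B55 subunits made up a smaller share of the B members in SOS and the B56 subunits a larger one, a difference that holds under any scaling of the libraries. B55 subunits direct PP2A to substrates of cyclin-dependent kinases at mitotic exit, and B56 subunits bind a short motif in many partners, among them proteins of the centromere. B55 members summed to 46.9 FPKM in control and 35.4 in SOS, and B56 members to 139 and 141. B55 thus made up 25.2% of the FPKM of the 6 B members in control and 20.1% in SOS.

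PPP2R2A (chromosome 8, 26291491 to 26372680), the B55 alpha subunit, was at 33.3 FPKM in control and 24.5 in SOS, a difference of -26.3%. PPP2R2D (chromosome 10, 131900644 to 131959834), the B55 delta subunit, was at 13.7 and 10.9, a difference of -20.5%. The log2 ratios of these were -0.43 and -0.31, and that of PPP2R2D was 0.02 with mitochondrial genes left out of the sums. Both stood in the lower part of genes of like level, above 25.2% of 2401 genes for PPP2R2A and above 22.9% of 3044 for PPP2R2D. PPP2R2D made up 29.1% of the B55 sum in control and 30.7% in SOS.

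The B56 genes ranged from lower to higher in SOS by the deposited FPKM, and all 4 were above 0 with equal sums. PPP2R5C (chromosome 14, 101761798 to 101927989), the B56 gamma subunit and the most abundant B subunit here, was at 74.4 FPKM in control and 78.8 in SOS. Its log2 ratio of 0.08 exceeded that of 86.3% of 1130 genes of like level. PPP2R5A (chromosome 1, 212285537 to 212361863), the B56 alpha subunit, was at 12.6 and 16.05, a 1.27-fold higher level in SOS, above 82.2% of 2984 genes. Together these were the members that were higher in the SOS library.

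PPP2R5D (chromosome 6, 42984499 to 43012342), the B56 delta subunit, was at 37.8 and 32.4 FPKM, with a log2 ratio of -0.22. PPP2R5E (chromosome 14, 63371357 to 63543374), the B56 epsilon subunit, was at 14.1 and 13.5, with -0.06. Both stood at the middle of genes of their level, above 51.2% of 2111 and 50.03% of 3000 genes. MEA1 lies on the opposite strand, overlaps 1200 bases of PPP2R5D and was at 72.6 and 40.2 FPKM. An antisense transcript within PPP2R5C, AL137779.2, was at 1.12 and 3.55. Of the 31-base stretches of PPP2R5C, 9.46% occurred in other genes, against 4.27% for PPP2R5E, 0.0646% for PPP2R5A and 0 for PPP2R5D.

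By level, 2 of 10 members had the same rank in both libraries, and the other 8 changed place by 1 to 3 ranks. PPP2R1A ranked first in both libraries and PPP2R2A sixth. PPP2R5C and PPP2CA exchanged the second and the third place, at 74.4 and 84.1 FPKM in control and 78.8 and 74.7 in SOS. PPP2CB and PPP2R5D, which differed by little in control at 39.1 and 37.8, exchanged the fourth and the fifth. PPP2R5A moved from the tenth place to the seventh, passing PPP2R2D, PPP2R5E and PPP2R1B, all of which lay between 10.9 and 17.1 FPKM. With no replicates, the spread that neighbours in this order would need to exceed is not known.

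**Figure D2:**
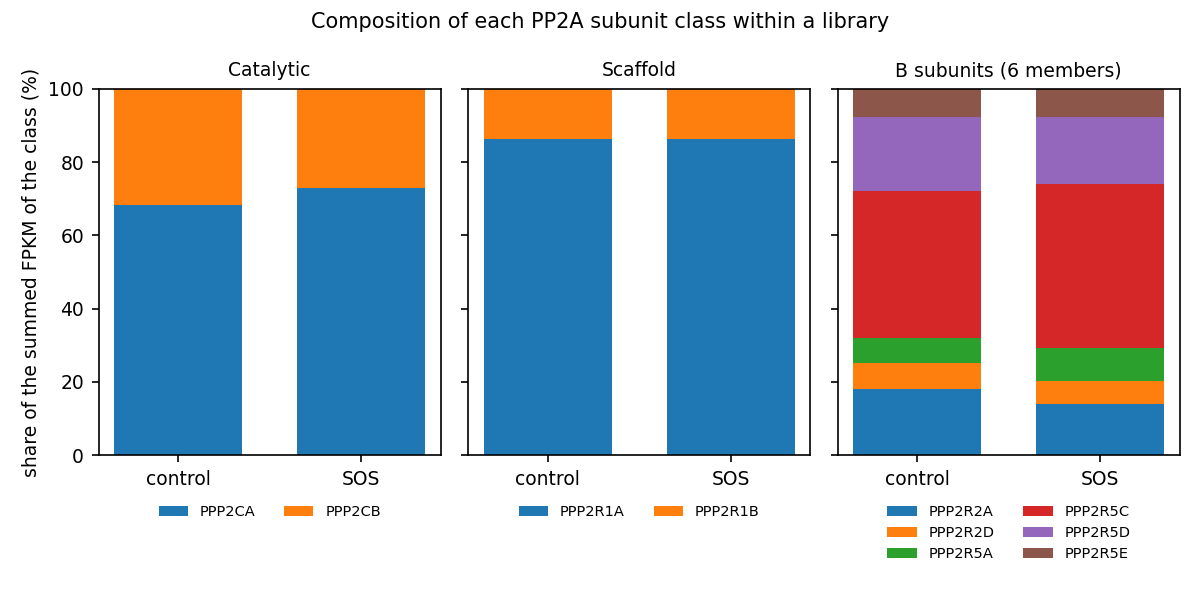
Share of each gene in the summed FPKM of its subunit class (vertical axis, percent) in the control and the SOS library, 1 library each. PPP2CB made up 31.7% and 27.0% of the catalytic sum, PPP2R1B 13.6% and 13.5% of the scaffold sum, and PPP2R5C 40.0% and 44.7% of the sum of the 6 B members, control first.

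Among the B members, PPP2R5C and PPP2R5A had the larger gains in share in the SOS library. PPP2R5C made up 40.0% of the summed FPKM of the 6 B members in control and 44.7% in SOS, and PPP2R5A 6.79% and 9.11%. PPP2R2A made up 17.9% and 13.9%, PPP2R5D 20.4% and 18.4%, and PPP2R2D 7.34% and 6.16%. PPP2R5E was at 7.58% and 7.65%. The 6 B members exceeded the scaffolds 1.48-fold in control and 1.70-fold in SOS. These are shares of RNA, and the amounts of protein or of assembled complex were not measured.

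Across the table the median ratio of genes tended to be lower at higher levels. The members' own ratios did not show this order. The member with the lowest mean, PPP2R2D, was at -0.31 and the one with the highest, PPP2R1A, at -0.27. The median log2 ratio of genes within 1.5-fold of a member's level was -0.04 for PPP2R2D, the member with the lowest mean, and -0.36 for PPP2R1A, the one with the highest. PPP2R5C and PPP2R5A lay furthest above the median of their level, and PPP2R2D, PPP2CB and PPP2R2A furthest below, of the 10.

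**Figure D3:**
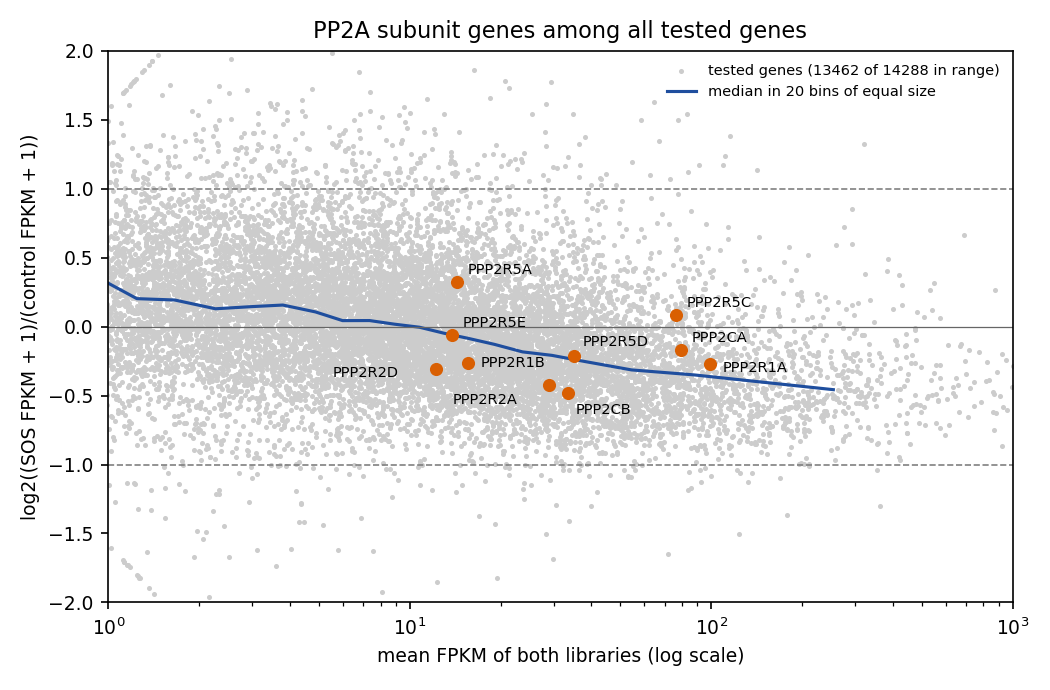
Log2 ratio of SOS over control with 1 FPKM added to each (vertical axis) against the mean FPKM of both libraries (horizontal log axis) for the 13462 of 14288 tested genes in the plotted ranges. The blue line is the median in 20 bins, dashed lines mark a 2-fold difference, and the labelled PP2A members all lie between them, with PPP2R5A and PPP2R5C above the line and PPP2CB and PPP2R2A below it.

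The direction of most members depended on how the libraries were scaled. The named genes summed to 886320 FPKM in control and 757901 in SOS, and the 37 genes of the mitochondrial genome took 10.2% of that sum in control and 18.0% in SOS. When the SOS library was rescaled so that the sums were equal, 5 of 10 members were below 0, and with the mitochondrial genes left out of the sum, 2 were. These scalings moved the median of the same 14288 genes to 0.15 and 0.27, with 37.1% and 26.9% of them below 0, and 47.1% and 32.8% of genes of like level. Relative to that shift, the members' medians of -0.023 and 0.11 were lower than the median of all genes by about as much as in the deposited FPKM.

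PPP2CB and PPP2R2A were below 0, and PPP2R5A and PPP2R5C above 0, in all 6 of the ways of setting the zero that were compared. These are not 6 separate measurements: 3 rescale the deposited FPKM uniformly, and centring with the deposited sign puts every gene with a negative deposited ratio above 0 by construction. For members with a positive deposited ratio, both centred settings give the same value, -0.38 for PPP2CB and -0.35 for PPP2R2A. The lowest PPP2CB ratio was -0.48 and the highest -0.14, and PPP2R2A ranged from -0.43 to -0.08. PPP2R5C ranged from 0.08 to 0.43 and PPP2R5A from 0.13 to 0.66. PPP2CA, PPP2R1A, PPP2R1B, PPP2R2D, PPP2R5D and PPP2R5E each changed side in at least 1 of the 6.

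**Figure D4:**
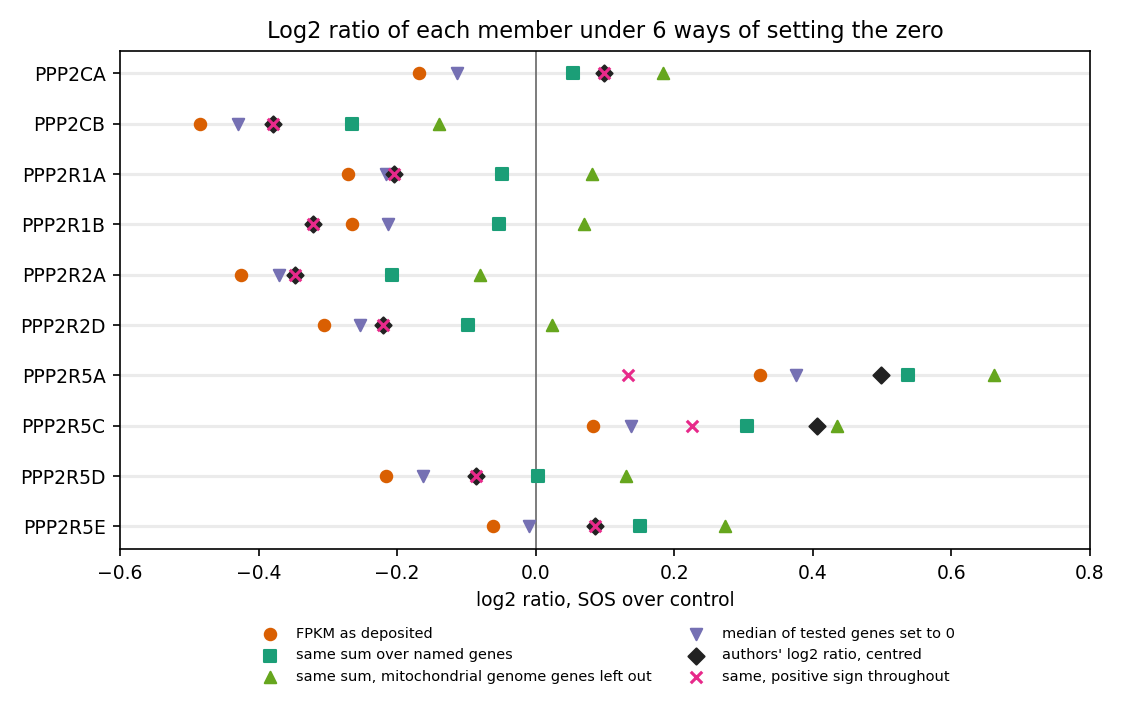
Log2 ratio of SOS over control for each member (horizontal axis) with the zero set in 6 ways, 1 symbol each: FPKM as deposited, 3 rescalings of the SOS library, and the log2 ratio of the authors' deposited table centred where their p-value was highest, with its deposited sign or a positive sign for all. PPP2CB and PPP2R2A lie left of 0 in each, PPP2R5A and PPP2R5C right of 0, and the other 6 members change side.

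The authors' deposited table also holds a log2 ratio, read here as control over SOS from its sign, a p-value and a mark of significance. In the authors' deposited table the sign of this ratio was that of control FPKM minus SOS FPKM in all 18939 of 18939 genes above 0 in both libraries with a ratio other than 0. Its size was not that of the FPKM ratio, with a median offset of 0.152 over 8992 genes of at least 5 FPKM in both libraries. In the authors' deposited table the p-value was at least 0.9 for 128 of those genes, of which 113 had a positive ratio with a median of 0.316 and 15 a negative ratio with a median of -0.313. The deposited p was thus highest near a size of 0.32 and not near 0. How the sign and the size were computed is not stated, so for members and for PPP2R5B and SGO2, where higher in SOS by FPKM, the centred ratio is given with either sign.

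None of the 10 members was marked significant in the authors' deposited table, where all 1097 marked genes had an absolute log2 ratio of at least 1. In that authors' deposited table, control over SOS was 0.69 for PPP2CB, 0.66 for PPP2R2A, 0.64 for PPP2R1B, 0.54 for PPP2R2D and 0.52 for PPP2R1A. These lie above the point of highest p, and the deposited adjusted p in the authors' deposited table was 6.44e-10 for PPP2CB, 1.44e-11 for PPP2R2A, 1.23e-07 for PPP2R1B, 0.0189 for PPP2R2D and 5.26e-14 for PPP2R1A. The authors' deposited table gave PPP2CA, PPP2R5E and PPP2R5D ratios of 0.22, 0.23 and 0.40, with adjusted p of 0.274, 0.182 and 0.0583. PPP2R5C had a ratio of -0.09 in the authors' deposited table with an adjusted p of 1.67e-11, and PPP2R5A a ratio of -0.18 with a p listed as 0. These p-values compare single libraries and not the conditions, and the test behind them is not given in the sources used here.

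Turned to SOS over control and centred at the point of highest p, the ratio from the authors' deposited table was -0.38 for PPP2CB and -0.20 for PPP2R1A. It was 0.10 for PPP2CA, which changed side against its FPKM. PPP2R5C came to 0.41 with the sign in the authors' deposited table and 0.23 with the opposite one, and PPP2R5A to 0.50 and 0.13. PPP2R1B was lower relative to PPP2R1A in this ratio, at -0.32, than by FPKM, where they were alike.

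Among other B subunits, PPP2R5B stood apart by size. PPP2R5B, the B56 beta subunit, was at 3.65 FPKM in control and 9.515 in SOS, 2.60-fold higher, and was the 1 of 3 other B subunits with at least 1 FPKM past the size of 2-fold, also under the rescalings (3.74% of all genes were higher by as much). It was marked significant in the authors' deposited table, with a ratio of -1.08, which centred as SOS over control is 1.399 with the deposited sign and -0.77 with the opposite one, so the direction turns with that sign. The PR72-family subunit PPP2R3B was at 4.89 FPKM in control and 4.88 in SOS, and PPP2R3C at 10.2 and 10.03. PPP2R3A, PPP2R2B and PPP2R2C were below 1 FPKM in both libraries. With PPP2R5B counted, the B56 genes made up 55.2% of the FPKM of 15 B subunits in control and 60.6% in SOS, and the B55 genes 18.2% and 14.3%.

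The striatins, which compete with the members for the core, differed little. STRN3 was at 7.544 FPKM in control and 7.545 in SOS, STRN at 6.68 and 5.755 and STRN4 at 39.2 and 33.6. With equal sums, the log2 ratio was 0.20 for STRN3 and at most 0.009 for STRN and STRN4, against a median of 0.15 over all genes. Together they made up 20.7% of the FPKM of the 15 B subunits in control and 18.9% in SOS, and STRN3 alone 2.92% and 3.04%. The 6 B members made up 71.9% and 71.0%.

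Genes for assembly and activation of PP2A had counts near those of genes at the members' level. Of 5, 4 were below 0 in the deposited FPKM (54.1% of all genes and 69.3% at the members' level), 3 with equal sums and 1 with mitochondrial genes left out of the sums, and the median log2 ratio was -0.25. Of these, 0 were past 2-fold and 1 was lower past the smaller size (26.7% and 35.3%). That gene was PTPA, which activates the catalytic subunit, at 129 FPKM in control and 84.8 in SOS. IGBP1, the alpha4 protein that holds free catalytic subunit, was the 1 above 0, at 41.6 and 48.5. The methyltransferase LCMT1 and the methylesterase PPME1, which set the methylation of the catalytic tail, had control levels of 20.5 and 26.4 FPKM and SOS levels of 18.8 and 22.1. TIPRL, a binder of the catalytic subunit, was at 24.98 and 20.9.

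Of 8 genes for inhibitors of PP2A and the kinase MASTL, 7 were lower in SOS by the deposited FPKM. With equal sums 6 were lower, and 4 with mitochondrial genes left out of the sums. The shares were 54.1%, 37.1% and 26.9% of all genes, and 69.3%, 47.1% and 32.8% at the members' level. SET, ANP32A and ENSA lay above that range of levels, and MASTL and FAM122A below it. In the deposited FPKM 4 of the 8 were lower past the smaller size (26.7% of all genes and 35.3% at the members' level). Past 2-fold there were 0, and the median log2 ratio was -0.33. ENSA and ARPP19, small proteins that inhibit PP2A bound to B55 once phosphorylated, had control levels of 155 and 31.3 FPKM and SOS levels of 94.5 and 22.2. MASTL, the kinase that phosphorylates both, was at 10.2 and 9.31. SET and ANP32A, nuclear inhibitors of the catalytic subunit, had control levels of 366 and 329 FPKM and SOS levels of 264 and 247. Genes of the level of SET and ANP32A had medians of -0.42 and -0.45, so these abundant inhibitors, at -0.47 and -0.41, were near the median of their level. CIP2A, listed in the table by its older symbol KIAA1524 and known to bind B56 complexes, was the 1 above 0, at 12.9 and 13.7. FAM122A was at 5.73 and 4.89 FPKM and BOD1 at 59.9 and 50.6.

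Of 6 other partners, 4 were above 0 and 2 below, with a median log2 ratio of 0.11. With equal sums 5 were above 0, and 5 with mitochondrial genes left out of the sums. The shares above 0 were 45.8%, 62.9% and 73.1% of all genes, and 30.7%, 52.9% and 67.2% at the members' level. SGO1, SGO2 and INTS6 lay below that range of levels. SGO2, a shugoshin that recruits B56-PP2A to centromeres, was at 4.11 FPKM in control and 9.60 in SOS, past 2-fold as 3.74% of all genes were, and its relative SGO1 was at 7.40 and 8.75. The ratio of SGO2 in the authors' deposited table, -1.06, centred as SOS over control, is 1.37 with the deposited sign and -0.74 with the opposite one. BUB1B, a spindle checkpoint protein with a B56-binding motif, was at 41.0 and 38.3. INTS6 and INTS8, which tie PP2A to the Integrator complex, had control levels of 11.3 and 37.8 FPKM and SOS levels of 11.7 and 43.1. AXIN1, a scaffold of the Wnt pathway that binds PP2A, was at 22.8 and 14.7, above 8.04% of 2861 genes of like level.

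**Figure D5:**
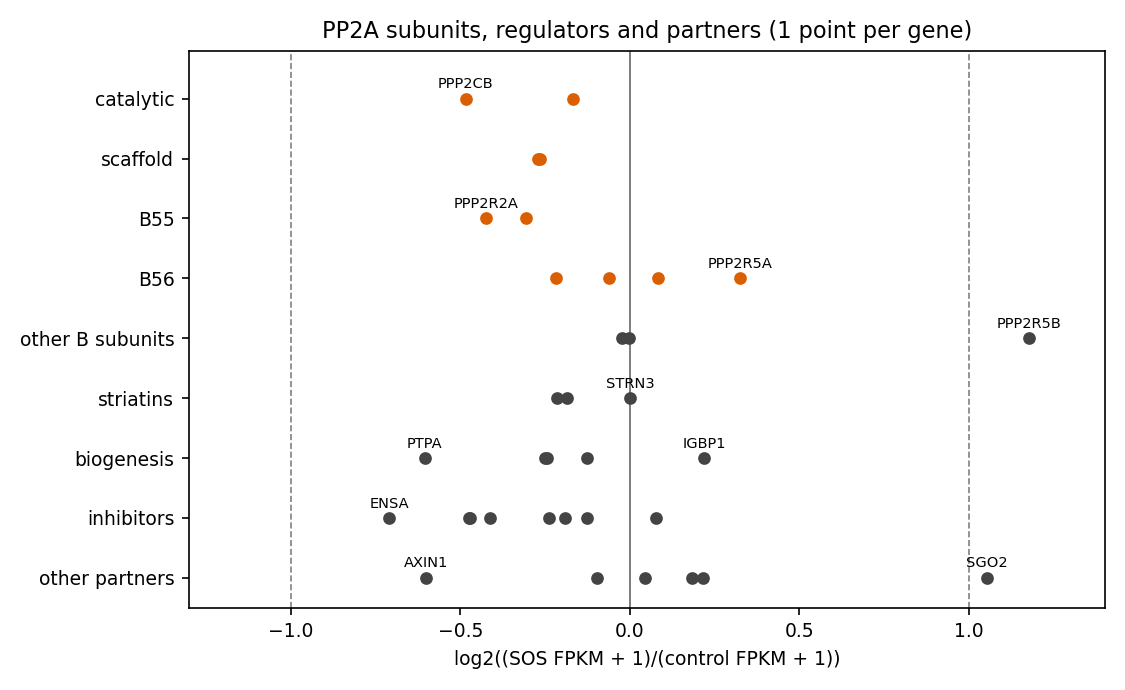
Log2 ratio of SOS over control with 1 FPKM added to each (horizontal axis) for the PP2A members (orange) and the other genes of the lists (grey), 1 point per gene with at least 1 FPKM in either library. Dashed lines mark a 2-fold difference, which PPP2R5B and SGO2 exceed on the higher side and 0 genes on the lower side.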

How the data were processed

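RNA sequencing of HGC-27 cells gave 1 library per group, and the deposited table holds 58645 lines. The authors' FPKM, log2 ratio, p-value and adjusted p-value are used as deposited, per the file headers. Their scaling, test and use of strand were not given in the sources used here. HISAT2, Cufflinks and RSEM with build GRCh38.p10 are named, with no roles, in the submitters' processing notes. Lines without a name (412) or with a name turned into a date (27) were left out, and lines sharing a name (213 names) were summed. Ratios were computed with a pseudocount of 1 for genes of at least 1 FPKM in either library, in Python 3.11.15 with pandas 2.3.3. The size rule was run on simulated data without noise, which checks its arithmetic and says nothing about the spread between libraries. Gene positions, overlaps and shared 31-base stretches came from GENCODE release 29 (GRCh38), which may differ from the authors' annotation. The members and gene lists were chosen with earlier results of these data known. The rule for named genes covers all 10 members and every gene of 7 fixed lists with at least 1 FPKM in either library; listed genes below that were named also. Alternatives were other pseudocounts, minimum FPKM, scalings, the authors' ratio and other denominators. Centring that ratio where p was highest, adding AC104109.4 to PPP2CA and adding PPP2R5B were chosen after seeing the data.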

Additional observations from a re-analysis of the deposited data

How the results depend on the processing

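No paired analysis was possible because each group has 1 library, and no replicate could be left out. Values were taken as moved beyond 0.1 on the log2 scale, 2 percentage points of a share or 0.1 of a ratio, or 1.5 times a count. Of 70 values for 10 results under alternatives, 55 did not move. Pseudocounts, minimum FPKM and taking the highest line per name moved none. Minimum FPKM and the highest line could not move a member, since each is on 1 line and above the minima in both libraries. Their values count among the 55 by construction. With the sums of the libraries made equal, the members' median was -0.023, with 5 below 0 and 0 lower past the smaller size. With mitochondrial genes left out of that sum, these were 0.11, 2 and 0, and 2 members were higher past that size. By the authors' log2 ratio, 5 members were lower past it with the offset removed. With that ratio centred at the highest p, an alternative chosen after seeing the data, 2 were higher by that size, and 0 with a positive sign throughout. That ratio, offset removed and with its deposited sign, was also put in place of the SOS FPKM. The SOS minus control difference was then -6.71 percentage points for PPP2CB among catalytic subunits. It was -0.12 for the ratio of scaffold to catalytic and 0.42 for B members to scaffold. The 0.42 was not recomputed with the opposite sign for PPP2R5A and PPP2R5C. With all 15 B subunits and the deposited FPKM, the difference was 2.98 points for the share of the B56 members and 0.33 for the ratio to scaffold. The cause of these moves was not tested. Shares of all genes past the smaller size were not computed under these alternatives, so those counts of members have no background beside them. Equal sums moved the median log2 ratio of all genes to 0.15, and to 0.27 with mitochondrial genes left out. The 0 members past 2-fold held under every alternative run. Without counts, the limits that depth sets cannot be stated.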

Other observations

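Subunit genes of related phosphatases had mean levels from below to above those of the PP2A members. Of 9 subunit genes of PP4 and PP6, which share the fold of the PP2A catalytic subunit, 7 were below 0 in the deposited FPKM. With equal sums 5 were below 0, and 2 with mitochondrial genes left out of the sums. The shares were 54.1%, 37.1% and 26.9% of all genes, and 69.3%, 47.1% and 32.8% at the members' level. In the deposited FPKM 3 were lower past a log2 ratio of -0.32 (26.7% of all genes and 35.3% at the members' level), with a median of -0.23. PPP4C, the PP4 catalytic subunit, was at 135 FPKM in control and 101 in SOS, and its regulatory partner PPP4R1 at 20.2 and 15.4. PPP6C, the PP6 catalytic subunit, was at 34.4 and 28.1, and the PP6 regulators PPP6R1, PPP6R2 and PPP6R3 at 22.5, 28.4 and 31.05 in control and 17.7, 25.7 and 26.3 in SOS. PPP4R3B and PPP4R2 were the genes above 0, at 20.5 and 9.75 in control and 23.7 and 10.2 in SOS, while PPP4R3A was at 49.1 and 46.9.

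The 3 catalytic subunits of PP1, the other main serine and threonine phosphatase, differed unequally, as those of PP2A did. PPP1CA was at 155 FPKM in control and 108 in SOS, PPP1CB at 38.6 and 43.8, and PPP1CC at 112 and 96.2. Their log2 ratios were -0.52, 0.18 and -0.21, and PPP1CC was above 0 with equal sums. PPP1CB stood above 85.6% of 1880 genes of like level, and PPP1CA above 35.8% of 612.

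In the authors' deposited table PPP2R3B, a PR72-family B subunit, had a log2 ratio of 0.64 with a p listed as 0, while its FPKM were 4.89 in control and 4.88 in SOS.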
